A study of Homo sapiens with 56 samples.

Results

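The early response of KG-1 cells to PMR-116 was examined by setting 4 libraries treated with 1 µM PMR-116 for 3 h against 4 libraries that had received the vehicle for PMR-116 for 3 h. The genes described are those with a mean of 1 or more CPM, the count of a gene scaled to a fixed library size, in either group, which were 12979 of the 59081 gene symbols in the KG-1 table. All 12979 were among the 18618 genes of KG-1 that passed the filter on low counts. KG-1 is an established human acute myeloid leukaemia (AML) line, and PMR-116 is an inhibitor of RNA polymerase I. The vehicle was a buffer of citric acid and sodium phosphate, and cells grew in RPMI medium with fetal bovine serum. The series holds 56 libraries, 32 from KG-1 and 24 from the AML line Mv4;11. Beside the 3 h PMR-116 group and its vehicle, 3 further sets are used below. These are KG-1 after 3 h of 1 µM CX-5461, another RNA polymerase I inhibitor, KG-1 after 12 h of PMR-116, and Mv4;11 after 3 h of PMR-116, each with vehicle libraries of its own. The library names of KG-1 in the labels carry a batch number, 2, and those of Mv4;11 carry none.

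RNA polymerase I transcribes the precursor of the large ribosomal RNAs in the nucleolus, and cells with high MYC make much of it. Block of this step can release ribosomal proteins that bind MDM2 and so stabilise p53. RNA polymerase II, which makes mRNA, is held near promoters until the kinase P-TEFb releases it, and HEXIM1 keeps P-TEFb inactive in the 7SK particle.

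The 4 PMR-116 libraries held 57689558, 31010467, 40183154 and 54728969 counts, and the 4 vehicle libraries 55269790, 46483480, 41699823 and 59951433. Within groups the log2 CPM of libraries correlated at 0.977 to 0.985, and between groups at 0.975 to 0.984. The 8 markers of AML were present at a summed level of 3658 to 3932 CPM with PMR-116 and 3719 to 3928 CPM with vehicle, and 0 of them were called. CD34, the stem cell antigen that KG-1 carries, stood at 2128 to 2354 CPM with PMR-116 and 2081 to 2345 CPM with vehicle. Of the 6 lymphocyte markers MS4A1 was at 0 and the sum was 237 to 248 CPM with PMR-116 and 225 to 246 CPM with vehicle, mostly NKG7 and CD3D. HBB, ALAS2 and PF4 of the 6 erythroid and megakaryocyte markers were at 0, with a sum of at most 0.145 CPM with PMR-116 and 0.168 CPM with vehicle. EPCAM and KRT19 of the 6 fibroblast, endothelial and epithelial markers were at 0, and the sum, mostly PECAM1, was 165 to 183 CPM with PMR-116 and 176 to 191 CPM with vehicle. None of the tested markers of these sets was called. In a longer list of lymphocyte markers 1 of 12 tested was called, the T cell adhesion gene CD2, with 2.43, 1.54, 2.06 and 2.46 CPM in PMR-116 libraries, against 3.80, 3.94, 3.11 and 3.79 CPM in vehicle libraries (-0.78 ± 0.15). The part of CD2-expressing cells in other results was not tested. In bulk RNA, fewer cells of a type and less RNA per cell cannot be told apart.

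After 3 h of PMR-116, 673 genes rose and 691 fell among the 18618 tested, which is 3.61% and 3.71% of them, or 7.33% together. The changes were mostly small. The median log2 fold change was 0.31 for genes that rose and -0.45 for genes that fell, and 85.9% of the rises and 64.4% of the falls were under 1.5-fold. A change of 2-fold or more was found for 35 genes that rose and 90 that fell. Of the 12979 genes at 1 CPM or more, 644 rose and 621 fell, or 9.75%, and 51 of these changed 2-fold or more. Shares of gene lists below are set beside the 7.33%. Most genes of those lists are at 1 CPM or more, where 9.75% were called. Every PMR-116 library lay beyond every vehicle library for 1167 of the 1364 called genes (85.6%). The calls were made from these same libraries, so a high share is in part built in and is no further evidence. The share over all genes tested was not counted. Scaling by library totals in place of the trimmed mean of M-values gave 552 rises and 885 falls, so that the share of rises was 38.4% against 49.3%. Of the 1364 calls 655 (48%) held whichever of the 8 libraries was left out, and 901 genes were called without vehicle replicate 2. Where the call of a named gene ended without 1 library, the treated or vehicle replicate left out is given below, with the highest adjusted p over all such fits.

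The largest rises among called protein-coding genes that averaged at least 5 CPM in the higher group, without overlap between groups, were in genes of varied function. HEXIM1, the inhibitor of P-TEFb, had 74.96, 70.82, 69.78 and 71.54 CPM in PMR-116 libraries, against 42.37, 37.53, 39.19 and 40 CPM in vehicle libraries. The groups were far apart beside their spread, with a log2 fold change of 0.85 ± 0.05 (standard error, adjusted p = 4.19e-12 in edgeR's quasi-likelihood test). FAM222A had 15.4, 14.52, 12.99 and 14.03 CPM in PMR-116 libraries, against 6.78, 5.53, 5.24 and 6.11 CPM in vehicle libraries, the largest rise by the naming rule (1.27 ± 0.12). KCNJ14, which encodes an inwardly rectifying potassium channel, averaged 8.40 ± 0.62 CPM with PMR-116 and 3.55 ± 0.38 CPM with vehicle (SD, n = 4 each, log2 fold change 1.24). Its exons overlap those of GRWD1 on the same strand, which was at -0.15. CARD9, an adaptor of antifungal signalling, rose by 1.07 ± 0.17 and CYP1A1, a cytochrome P450 induced through the aryl hydrocarbon receptor, by 0.99 ± 0.20. CYP1A1 had 8.74, 9.65, 6.37 and 6.35 CPM in PMR-116 libraries, against 3.343, 4.003, 3.9 and 4.343 CPM in vehicle libraries, without overlap. The kinase gene DMPK (0.95), the stress-linked transcription factor ATF5 (0.86), the endoplasmic reticulum shaping gene LNPK (0.81), the small GTPase genes DIRAS1 (0.80), RAB23 (0.78) and RHOB (0.76), and TSPOAP1 (0.78) complete the 12 largest rises. Each had all PMR-116 libraries above all vehicle libraries, which the naming rule required. ATF5 shares exonic sequence with IL4I1 (log2 fold change -0.205) and NUP62 (0.085) on the opposite strand. RAB23 does so with BAG2 (-0.028), DMPK with DM1-AS (-0.066) and TSPOAP1 with TSPOAP1-AS1 (-0.295), and the use of strand in counting is not stated. Of other genes named here, CARD9 shares exons on the same strand with DNLZ (-0.024) and DIRAS1 with AC006538.2 (-0.206). PPAN does so with P2RY11 (0.161) and PPAN-P2RY11 (-0.252). SLC19A1 shares them with COL18A1 (-0.027) and JUNB with HOOK2 (-0.054) on the opposite strand. TLR1 shares exons on the same strand with TLR6 (-0.596), SIRT7 with MAFG (0.089) and SUPT4H1 with RNF43 (0.386) and AC004687.2 (-1.166). DDX31 shares them with GTF3C4 (0.447) and TOB1 with TOB1-AS1 (1.024) on the opposite strand. This list is not complete, and whether shared reads have a part in any call was not tested.

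By the same limits the largest fall was that of TIGD5, a gene derived from a transposase. It had 17.3, 14.1, 11.0 and 11.8 CPM in PMR-116 libraries, against 58.4, 44.2, 50.0 and 52.1 CPM in vehicle libraries. The log2 fold change was -1.92 ± 0.11, a level 0.265 times that of vehicle (adjusted p = 1.13e-12). The exons of TIGD5 overlap EEF1D on the opposite strand, which was at -0.06. SLC19A1, the reduced folate carrier and a listed MYC target, had 62.0, 39.9, 47.6 and 43.2 CPM in PMR-116 libraries, against 116, 93.9, 107 and 92.3 CPM in vehicle libraries (-1.08 ± 0.11, adjusted p = 1.92e-07). All 4 PMR-116 libraries were below all 4 vehicle libraries. The succinate receptor SUCNR1 had 3.31, 4.74, 4.05 and 4.53 CPM in PMR-116 libraries, against 6.28, 10.9, 9.47 and 11.3 CPM in vehicle libraries (-1.19 ± 0.17). CNR2, the cannabinoid receptor of immune cells, fell by 0.99 on the log2 scale. MDM4, a partner of MDM2 that restrains p53, averaged 17.4 ± 5.42 CPM with PMR-116 and 33.9 ± 4.81 CPM with vehicle (SD, n = 4 each, -0.95 ± 0.18). CBFA2T3, a transcriptional corepressor of blood progenitors, averaged 72.5 ± 10.9 CPM with PMR-116 and 135 ± 9.86 CPM with vehicle (-0.90 ± 0.10). CAPN15 averaged 81.1 ± 4.73 CPM with PMR-116 and 146 ± 16.98 CPM with vehicle (-0.85 ± 0.07, adjusted p = 3.35e-09). The proline synthesis gene PYCR3 (-0.84), STON2 (-0.89), the Fc receptor gene FCGR1B (-0.86), CASS4 (-0.80) and SCART1 (-0.77) complete the 12. FCGR1B has the close paralog FCGR1A, so that reads may be split between them. Of the 24 genes the call of SCART1 ended without 1 library (treated 2, 3 or 4, vehicle 1 or 3, 0.0688).

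**Figure D1:**
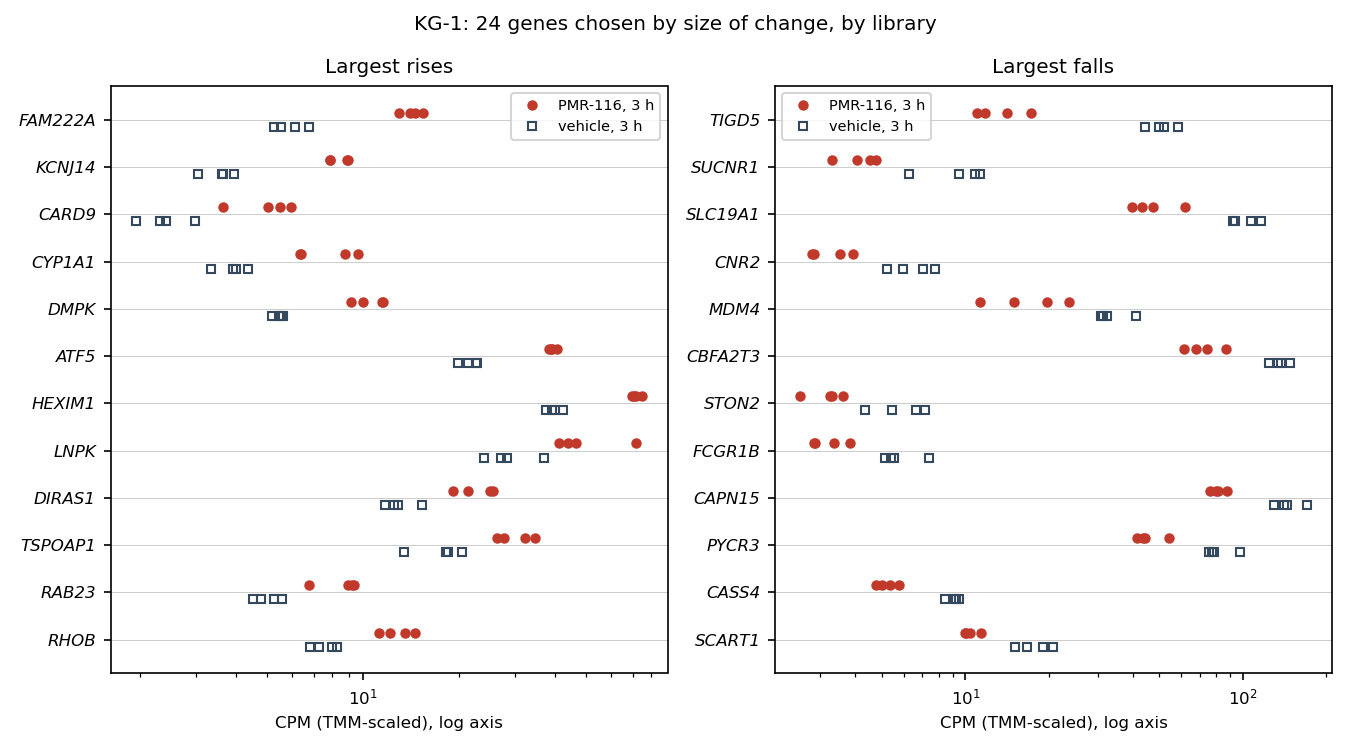
CPM of the 12 largest rises (left) and 12 largest falls (right) among called protein-coding genes that averaged at least 5 CPM in the higher group, without overlap between groups, in KG-1 after 3 h, on a log axis, with 1 symbol per library (filled circles PMR-116, open squares vehicle, 4 libraries each). HEXIM1 lies at 69.78 to 74.96 CPM with PMR-116 and 37.53 to 42.37 CPM with vehicle, and TIGD5 at 11.0 to 17.3 CPM with PMR-116 and 44.2 to 58.4 CPM with vehicle.

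By difference in mean CPM, the largest gains and losses were partly in RNAs of the mitochondrial genome. MT-RNR2, the large ribosomal RNA of mitochondria, had 4888, 4982, 5182 and 4982 CPM in PMR-116 libraries, against 3272, 3699, 3391 and 2874 CPM in vehicle libraries. It rose by 0.60 ± 0.10 (adjusted p = 0.000238), with all PMR-116 libraries higher. Among nuclear genes the chaperone HSPA8 had 1764, 1330, 1266 and 1442 CPM in PMR-116 libraries, against 1329, 951, 907 and 1071 CPM in vehicle libraries. Its groups overlap, with an adjusted p of 0.0457 that rose to as much as 0.194 without 1 library (treated 1, 2 or 4, vehicle 2, 3 or 4). Each PMR-116 library was above the vehicle library of the same number, though the labels state no pairing. The histone variant gene H3-3B averaged 500.1 ± 26.2 CPM with PMR-116 and 357 ± 7.93 CPM with vehicle (0.49), the tubulin gene TUBB4B rose by 0.43 and the 14-3-3 gene YWHAG by 0.21. The oncogenic kinase gene PIM1 averaged 578 ± 48.7 CPM with PMR-116 and 773 ± 76.1 CPM with vehicle (-0.42 ± 0.08). PAG1, an adaptor that restrains SRC kinases, fell by 0.28 on the log2 scale and CDK6, a kinase that drives entry into the cell cycle, by 0.25. MYC had 884, 888, 759 and 780 CPM in PMR-116 libraries, against 1040, 1010, 1008 and 1030 CPM in vehicle libraries. All PMR-116 libraries were lower, and the log2 fold change was -0.30 ± 0.09 (adjusted p = 0.0429). That call ended without any 1 library but treated 2 (0.137) and with no filter on low counts.

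Along the mitochondrial genome the changes followed the order of the genes. The mitochondrial genome is transcribed as long precursors that are then cut into single RNAs, and 14 of its 15 rRNAs and mRNAs listed here lie on the heavy-strand transcript. The first 3 of that transcript rose, with MT-RNR1 at 0.66 ± 0.08, MT-RNR2 at 0.60 ± 0.10 and MT-ND1 at 0.53 ± 0.12. MT-ND2 (0.15), MT-CO1 (0.11), MT-CO2 (0.02), MT-ATP8 (-0.23), MT-ATP6 (-0.12) and MT-CO3 (-0.14) were not called. Those near the end fell, with MT-ND3 at -0.29, MT-ND4L at -0.38, MT-ND4 at -0.35, MT-ND5 at -0.37 and MT-CYB, which encodes cytochrome b, at -0.59 ± 0.10. MT-ND4L and MT-ND4 overlap in sequence. The calls of MT-ND3 (treated 1, 0.0508) and MT-ND4L (vehicle 2, 0.0554) ended without 1 library. MT-ND6, transcribed from the other strand, was at -0.12 ± 0.18 (adjusted p = 0.747). Across the 14 genes the Spearman correlation of start position and log2 fold change was -0.97. The genes share a transcript and are not independent, so this is a description. The libraries were made for mRNA, so the amount of these RNAs and their capture in library preparation cannot be told apart.

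The ratio of MT-RNR1 to MT-CYB was 0.528, 0.546, 0.488 and 0.554 in PMR-116 libraries, against 0.209, 0.216, 0.213 and 0.254 in vehicle libraries. The ratio of MT-ND1 to MT-CYB was 1.72, 1.65, 1.70 and 1.74 in PMR-116 libraries, against 0.813, 0.740, 0.800 and 0.793 in vehicle libraries. Each PMR-116 library exceeded each vehicle library in both ratios. The share of counts on mitochondrial genes, at 4.66% to 5.17% with PMR-116 and 4.26% to 5.26% with vehicle, overlapped between the groups. The same correlation was -0.99 for PMR-116 at 12 h, -0.81 for CX-5461 at 3 h, -0.87 for PMR-116 at 3 h in Mv4;11, and 0.16 for the vehicle of PMR-116 set against the vehicle of CX-5461. With CX-5461 the values of the genes called with PMR-116 lay between 0.18 for MT-ND1 and -0.20 for MT-ND4L, with MT-CYB at -0.15, and 0 of the 13 mitochondrial mRNAs were called. The difference between the compounds was not called for MT-RNR1 (0.55 ± 0.11, adjusted p = 0.124) or MT-CYB (-0.45 ± 0.14, adjusted p = 0.662).

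**Figure D2:**
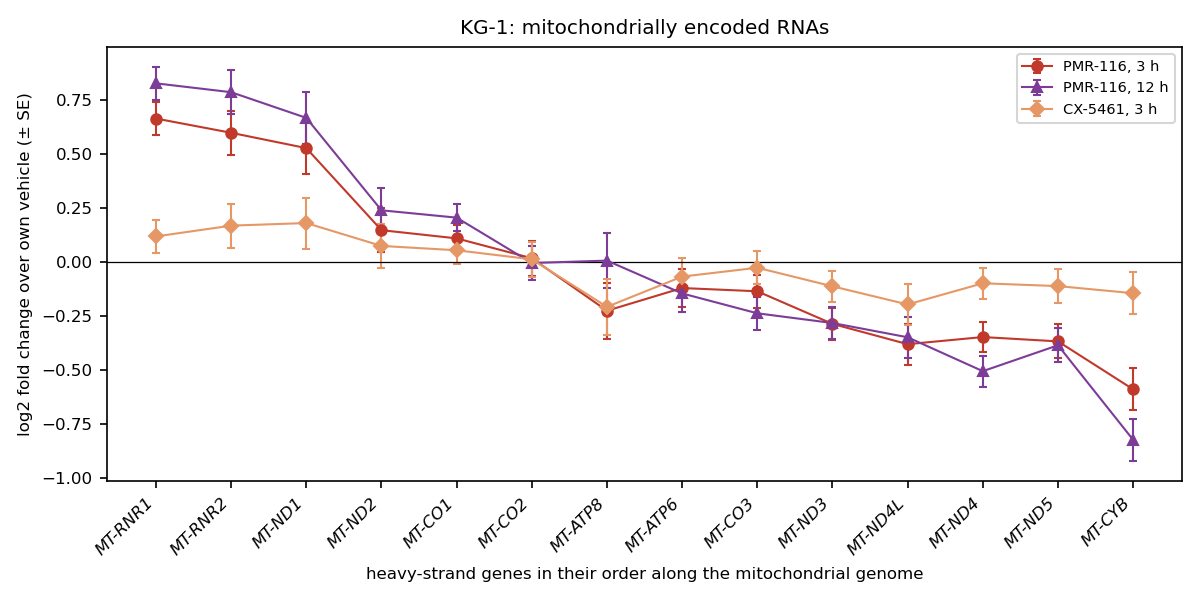
Log2 fold change over the group's own vehicle (vertical axis, ± standard error) of 14 mitochondrial RNAs of KG-1 in their order along the heavy-strand transcript (horizontal axis), for PMR-116 at 3 h, PMR-116 at 12 h and CX-5461 at 3 h, 4 libraries per group. Values for PMR-116 at 3 h run downward along the genome between 0.66 at MT-RNR1 and -0.59 at MT-CYB.

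Of 30 tested genes in a list for P-TEFb and transcription pausing, 8 rose and 4 fell (40% called, beside 7.33% of all genes tested), with a median log2 fold change of 0.10 beside 0.001 for all genes tested. The list was drawn up with earlier results of these data known, so its share is only a description. It also holds SERTAD1 and ZFP36L2, which are not factors of P-TEFb or pausing and are both among the calls. ZFP36L2 is counted again among the mRNA decay genes. Beside HEXIM1, the rises were SERTAD1 (0.66), MEPCE (0.41), the capping enzyme of 7SK RNA, the elongation factor genes ELL (0.34), AFF4 (0.25) and SUPT4H1 (0.25), the bromodomain gene BRD2 (0.21) and the kinase gene CDK12 (0.17). SERTAD1 had 7.82, 7.51, 5.69 and 6.07 CPM in PMR-116 libraries, against 4.41, 3.87, 4.33 and 4.50 CPM in vehicle libraries. The falls were MLLT1 (-0.65 ± 0.08), a member of the super elongation complex, its homologue MLLT3 (-0.26), the mRNA decay factor gene ZFP36L2 (-0.38) and CDK9 (-0.23), the kinase subunit of P-TEFb. CDK9 had 101, 103, 102 and 104 CPM in PMR-116 libraries, against 115, 118, 126 and 123 CPM in vehicle libraries, and so did not overlap. Without 1 library the calls of ELL (treated 1, 0.0658), CDK9 (vehicle 3, 0.0568) and ZFP36L2 (vehicle 1, 0.0574) ended, as did those of AFF4 (treated 1 or 4, vehicle 2 or 3, 0.110), CDK12 (treated 1 or 4, vehicle 2 or 3, 0.106) and SUPT4H1 (any but treated 2, 0.126). Between 4 and 8 genes of the list rose and 3 or 4 fell when 1 library was left out.

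Among the subunits and general factors of RNA polymerase II, 6 of 28 rose and 0 fell (3 lower at an unadjusted p under 0.05, 1 by DESeq2), 21.4% called, with a median of 0.08. POLR2A, the largest subunit, averaged 282 ± 11.0 CPM with PMR-116 and 230 ± 18.4 CPM with vehicle (0.30 ± 0.06, adjusted p = 0.00249). TAF5, a subunit of TFIID, rose by 0.46 and the initiation factor GTF2B by 0.35. GTF2F1 (0.25), POLR2D (0.23) and ERCC3 (0.15) were called, and their calls ended without 1 library (vehicle 2, 0.0779 for GTF2F1, any but treated 2 and vehicle 4, 0.0847 for POLR2D, and treated 2 or 4 or vehicle 2 or 3, 0.0731 for ERCC3). PCF11, a factor of transcript cleavage and termination, averaged 79.3 ± 6.12 CPM with PMR-116 and 57.2 ± 5.29 CPM with vehicle (0.47 ± 0.11).

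Genes of fast stress responses rose in small number. Of 31 immediate-early genes, which cells induce without new protein synthesis, 6 rose and 1 fell, with a median of 0.26. That is 22.6% called, beside 7.33% of all genes tested. At an unadjusted p under 0.05, 12 were higher and 2 lower. The AP-1 gene JUNB had 53.53, 41.04, 42.36 and 44.05 CPM in PMR-116 libraries, against 37.1, 27.7, 31.8 and 32.4 CPM in vehicle libraries (0.49 ± 0.10). Its groups do not overlap. RHOB, given above, ZFP36 (0.37), which promotes decay of AU-rich mRNA, the pseudokinase gene TRIB1 (0.36), the transcription factor gene SRF (0.30) and IER5 (0.19) also rose, and FOSL2 fell (-0.48). Calls ended without 1 library for TRIB1 (treated 2, vehicle 3, 0.0547), IER5 (treated 1, vehicle 2 or 3, 0.100) and FOSL2 (treated 1, 2 or 3, vehicle 2 or 4, 0.100), and DESeq2 called 11 rises in the list. Of 28 cytosolic chaperone and heat shock genes, 5 rose and 0 fell (0 lower at an unadjusted p under 0.05 and 0 by DESeq2), 17.9% called, with a median of 0.13. HSPA1A had 82.9, 68.8, 57.3 and 64.5 CPM in PMR-116 libraries, against 55.5, 41.2, 36.1 and 46.3 CPM in vehicle libraries (0.61 ± 0.14). HSPA1B (0.48), a near-identical copy whose reads may be split with HSPA1A, HSPA8, the co-chaperone BAG3 (0.31) and DNAJB4 (0.48) were the other 4. The calls of HSPA1B (treated 1, 2 or 4, vehicle 2, 3 or 4, 0.211) and DNAJB4 (treated 2, 3 or 4, vehicle 1, 3 or 4, 0.147) ended without 1 library, and with library totals 2 genes of this list rose.

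The promoters of 6 genes named above are shown because they hold the TATAAA box near the start or the heat shock element GAANNTTC, both in capitals, in the 120 bases before the annotated start. They are from RefSeq, build GRCh38.p14, written 5′ to 3′ on the strand of the gene. HEXIM1 lies at chr17:45148355-45148474 on the plus strand, JUNB at chr19:12791366-12791485 on plus, CYP1A1 at chr15:74725529-74725648 on minus, HSPA1A at chr6:31815423-31815542 on plus, HSPA1B at chr6:31827618-31827737 on plus and HSPA8 at chr11:123062137-123062256 on minus.
HEXIM1: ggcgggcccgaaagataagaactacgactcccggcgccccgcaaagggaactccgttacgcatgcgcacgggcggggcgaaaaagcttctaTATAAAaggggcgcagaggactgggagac
JUNB: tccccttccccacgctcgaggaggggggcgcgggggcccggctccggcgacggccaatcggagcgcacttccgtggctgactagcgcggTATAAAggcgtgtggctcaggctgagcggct
CYP1A1: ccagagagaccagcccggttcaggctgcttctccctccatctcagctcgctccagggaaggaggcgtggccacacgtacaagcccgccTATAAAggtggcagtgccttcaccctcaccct
HSPA1A: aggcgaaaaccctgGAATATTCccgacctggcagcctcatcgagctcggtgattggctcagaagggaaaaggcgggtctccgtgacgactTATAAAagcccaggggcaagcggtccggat
HSPA1B: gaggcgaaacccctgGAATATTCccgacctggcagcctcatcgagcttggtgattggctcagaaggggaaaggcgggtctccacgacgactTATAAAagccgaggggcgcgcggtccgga
HSPA8: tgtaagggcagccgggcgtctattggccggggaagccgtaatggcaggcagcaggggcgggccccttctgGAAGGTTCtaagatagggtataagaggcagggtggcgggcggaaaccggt

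TATAAA, read on the strand of the gene between bases -45 and -20, was in 3.03% of 727 promoters of the genes that rose and 1.42% of 706 promoters of those that fell. It was in 1.66% of 16691 promoters of all genes tested and 2.39% of all 35116 promoters of the table. GAANNTTC, which reads alike on both strands, was within 250 bases before the start in 5.23% of promoters of genes that rose and 3.40% of those of genes that fell, beside 4.37% over all genes tested and 5.78% over all promoters. These are matches of letters, and binding was not measured. A promoter was found for 521 of the 673 genes that rose and 460 of the 691 that fell.

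Of 40 genes of mRNA decay and deadenylation, 6 rose and 1 fell (17.5% called, beside 7.33% of all genes tested), with a median of 0.07. DCP1A, an activator of decapping, averaged 59.6 ± 3.57 CPM with PMR-116 and 43.7 ± 4.47 CPM with vehicle (0.45 ± 0.08). The deadenylation adaptor genes TOB1 (0.45) and TOB2 (0.43), SMG8 (0.35), a regulator of nonsense-mediated decay, ZFP36 and BTG1 (0.28) were the other rises, and ZFP36L2, of the family of ZFP36, fell. The calls of TOB1 (treated 1, vehicle 2, 3 or 4, 0.0629) and BTG1 (treated 4, vehicle 1, 0.0828) ended without 1 library. Of 35 lysosome and autophagy genes 6 rose and 0 fell (2 lower at an unadjusted p under 0.05, 0 by DESeq2), 17.1% called, with a median of 0.12. Among the rises were the sialidase NEU1 (0.29) and the proton pump subunit ATP6V1H (0.27). SQSTM1 (0.29), the autophagy receptor p62, MAP1LC3B (0.22), GABARAPL2 (0.19) and GLA (0.24) lost their call without 1 library. The libraries were treated 1 or vehicle 2, 3 or 4 for SQSTM1 (0.126), treated 3 or vehicle 1 or 2 for MAP1LC3B (0.0699), any but treated 1 and vehicle 4 for GABARAPL2 (0.141) and any but vehicle 1 for GLA (0.122). Between 2 and 5 genes of that list rose without 1 library.

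Of 63 genes of DNA replication and the G1/S transition, 5 rose and 0 fell (3 lower at an unadjusted p under 0.05, 1 by DESeq2), with a median of 0.04. The share called was 7.94%, beside 7.33% of all genes tested and 9.75% of those at 1 CPM or more, to which all 63 belong. CCNE1, cyclin E1, had 32.2, 31.9, 30.9 and 32.3 CPM in PMR-116 libraries, against 22.94, 19.25, 21.01 and 21.03 CPM in vehicle libraries (0.60 ± 0.09, adjusted p = 3.18e-05). The phosphatase gene CDC25A (0.40), ORC6 (0.35), a subunit of the origin recognition complex, the flap nuclease gene FEN1 (0.34) and E2F1 (0.27) also rose, each with all PMR-116 libraries above all vehicle libraries. These 5 calls held in all 16 alternatives.

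Of 42 haematopoietic transcription factors 2 rose and 4 fell (14.3% called, beside 7.33% of all genes tested), with a median of -0.06. IKZF2, which encodes Helios, had 64.0, 67.7, 50.1 and 62.9 CPM in PMR-116 libraries, against 107, 104, 86.7 and 105 CPM in vehicle libraries (-0.72 ± 0.12). LMO2 (-0.46), a bridge in progenitor transcription complexes, ZFPM1 (-0.51), a partner of GATA factors, and ZEB2 (-0.36) fell, and ID1 (0.36) and GFI1 (0.26) rose. The calls of ID1 (treated 1, vehicle 2 or 4, 0.0772) and GFI1 (treated 1, 2 or 3, vehicle 3 or 4, 0.144) ended without 1 library. In a list of 18 MHC class II genes and their regulators 0 rose (0 higher at an unadjusted p under 0.05 and 0 by DESeq2) and 3 fell. That is 16.7% called, with a median of -0.05. CIITA, the master activator of this gene set, averaged 32.3 ± 3.11 CPM with PMR-116 and 48.01 ± 3.63 CPM with vehicle (-0.58 ± 0.09). NFYA, a subunit of a factor that binds promoters of MHC class II genes, fell by 0.58 on the log2 scale. HLA-DMB (-0.31) was the only fall outside the regulators, and its call ended without 1 library (treated 1 or 4, vehicle 3, 0.103). Of 26 monocyte and granulocyte maturation genes 0 were called, with 3 lower at an unadjusted p under 0.05 and 0 by DESeq2.

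The host gene of miR-223, a microRNA of myeloid cells, was among the noncoding falls. MIR223HG had 11.9, 11.8, 15.3 and 12.1 CPM in PMR-116 libraries, against 27.4, 32.1, 31.2 and 23.5 CPM in vehicle libraries (-1.16 ± 0.17, adjusted p = 2.59e-05). The groups do not overlap. Its main mature product, shown because the host transcript changed, lies at chrX:66018937-66018958 on the plus strand in GRCh38.p14 per RefSeq, with the seed in capitals, and the mature microRNA itself was not measured.
hsa-miR-223-3p: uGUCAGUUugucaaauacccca

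Genes of RNA polymerase I and ribosome assembly are given next. Of 13 subunits of RNA polymerase I 0 were called (3 higher and 0 lower at an unadjusted p under 0.05, 0 by DESeq2). POLR1A, the largest subunit, had 269, 235, 231 and 224 CPM in PMR-116 libraries, against 269, 246, 238 and 236 CPM in vehicle libraries (-0.05 ± 0.07, adjusted p = 0.788). POLR1B was at -0.01 ± 0.09 and UBTF, a factor that coats active ribosomal DNA, at -0.01 ± 0.06. Of 14 initiation and termination factors 2 rose, RRN3 (0.17 ± 0.05), which recruits the polymerase, and the deacetylase gene SIRT7 (0.23). Both calls ended without 1 library (treated 1, 3 or 4 or vehicle 1, 2 or 4, 0.126 for RRN3, and treated 1 or 3 or vehicle 2, 3 or 4, 0.222 for SIRT7), and with library totals 0 were called. The 2 calls are 14.3% of these factors, beside 7.33% of all genes tested. Of 55 genes of the small subunit processome 0 were called (5 higher and 2 lower at an unadjusted p under 0.05, 3 by DESeq2). Of 58 factors of 60S assembly 2 rose and 2 fell (6.9% called). PPAN averaged 92.0 ± 8.996 CPM with PMR-116 and 131 ± 7.41 CPM with vehicle (-0.51 ± 0.06), and TMA16 fell by 0.29 on the log2 scale. URB2 (0.24) and DDX31 (0.18) were called higher until 1 library was left out (treated 1 or vehicle 2, 0.0600 for URB2, and any but treated 2 and vehicle 1, 0.138 for DDX31). Of 79 cytosolic ribosomal protein genes 0 were called (2 higher and 0 lower at an unadjusted p under 0.05, 0 by DESeq2), and their values lay between -0.09 and 0.16.

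Among 53 MYC target genes 0 rose and 1 fell, SLC19A1, which is 1.89% called beside 7.33% of all genes tested. At an unadjusted p under 0.05, 4 were higher and 3 lower, and DESeq2 called 2 higher and 2 lower. Of 36 p53 targets 3 rose and 0 fell (5 lower at an unadjusted p under 0.05, 0 by DESeq2), with a median of -0.04. The share of 8.33% lies between the 7.33% of all genes tested and the 9.75% of those at 1 CPM or more. PPM1D, a phosphatase that acts back on p53, averaged 25.9 ± 2.19 CPM with PMR-116 and 20.9 ± 1.07 CPM with vehicle (0.31 ± 0.07). BTG1 and GADD45B (0.21) were the others, and the call of GADD45B ended without 1 library (any but treated 3 and vehicle 4, 0.208), as did that of BTG1. CDKN1A, which encodes p21, was low, with 2.97, 2.10, 4.20 and 4.10 CPM in PMR-116 libraries, against 1.98, 2.05, 3.47 and 2.78 CPM in vehicle libraries. The groups overlap, though each PMR-116 library was above the vehicle library of the same number, and the log2 fold change was 0.39 ± 0.24 (adjusted p = 0.383). MDM2 was at -0.15 ± 0.06 (adjusted p = 0.161). Of 24 genes of the BCL2 family and death regulators 2 rose and 2 fell (16.7% called, beside 7.33% of all genes tested). MCL1, a survival protein gene, averaged 119 ± 4.12 CPM with PMR-116 and 91.8 ± 9.68 CPM with vehicle (0.37), and CFLAR, an inhibitor of death receptor signalling, averaged 176 ± 6.28 CPM with PMR-116 and 225 ± 12.5 CPM with vehicle (-0.36).

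Among genes of the ATF4 response to amino acid shortage, DDIT4 and CHAC1 varied widely between libraries. Of 47 tested genes of this response, 1 rose (ATF5) and 1 fell (DDIT4), which is 4.26% called beside 7.33% of all genes tested. A log2 fold change below 0 was found for 39, and the median was -0.16. At an unadjusted p under 0.05, 9 were lower, DESeq2 called 4 lower, and leaving out 1 library gave 0 to 5 falls. DDIT4, an inhibitor of mTORC1, had 24.8, 105, 60.5 and 62.8 CPM in PMR-116 libraries, against 67.1, 212, 161 and 173 CPM in vehicle libraries (-1.29 ± 0.34, adjusted p = 0.0161). The groups overlap, since the lowest vehicle library lies below the highest PMR-116 library, and replicate 1 was lowest in both groups. DDIT4 was lower in each PMR-116 library than in the vehicle library of the same number, though the labels state no pairing. Its call ended without treated 1 or vehicle 2 (0.0791) and in a fit of the 8 libraries alone. The glutathione-degrading enzyme CHAC1 had 14.9, 81.8, 58.6 and 60.1 CPM in PMR-116 libraries, against 61.6, 141, 130 and 126 CPM in vehicle libraries, and was not called (-1.10 ± 0.36, adjusted p = 0.0579). It too was lower in each PMR-116 library than in the vehicle library of the same number. SESN2, a stress-induced inhibitor of mTORC1, was at -0.94 ± 0.34 (adjusted p = 0.0915). Both were called without vehicle replicate 1 or treated replicate 2, with an adjusted p of at least 0.0264 for CHAC1 and 0.0258 for SESN2 over the fits with 1 library left out. ATF4 itself was at -0.07 ± 0.12. Of 26 regulators of mTORC1, 3 rose and 2 fell, 19.2% called. RPTOR, the scaffold of the complex, averaged 80.0 ± 4.25 CPM with PMR-116 and 111 ± 3.51 CPM with vehicle (-0.48 ± 0.05, adjusted p = 1.92e-07). RRAGA, a GTPase that brings mTORC1 to lysosomes, rose by 0.25, and the kinase gene RPS6KB1 rose by 0.29 with a call that ended without 1 library (treated 4, vehicle 2 or 3, 0.0755).

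Of 34 genes of cholesterol and fatty acid synthesis and uptake, 1 rose and 3 fell (11.8% called, beside 7.33% of all genes tested), with a median of -0.08. Among the falls, the mevalonate kinase gene MVK fell by 0.38 on the log2 scale. The rise was that of MYLIP (0.19), which encodes a ubiquitin ligase, and its call ended without 1 library (treated 1, 2 or 3, vehicle 2, 3 or 4, 0.160). CYP1B1, like CYP1A1 a target of the aryl hydrocarbon receptor, stood at -0.28 ± 0.08, and its call ended without 1 library (treated 3 or 4, vehicle 1 or 2, 0.124). CYP1B1 averaged 365 CPM with PMR-116 and 444 CPM with vehicle.

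**Figure D3:**
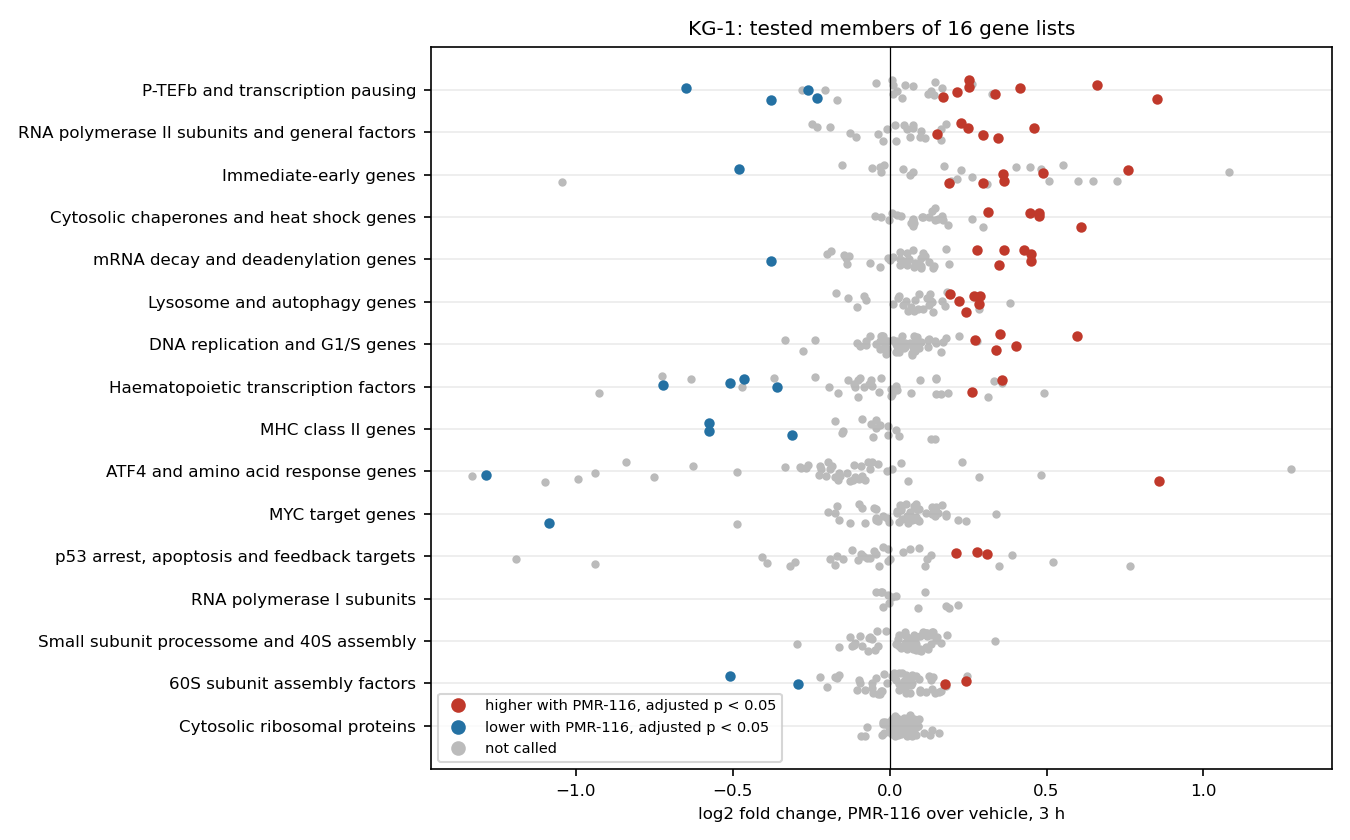
Log2 fold change of PMR-116 over vehicle at 3 h in KG-1 (horizontal axis) for each tested member of 16 gene lists (rows), 4 libraries per group. Red points rose and blue points fell at an adjusted p under 0.05, grey points were not called, and the 79 ribosomal protein genes lie between -0.09 and 0.16.

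By type and length of gene the calls were uneven. Of 13554 protein-coding genes tested 4.64% rose and 3.88% fell. Of 3202 long noncoding genes 0.968% rose and 3.84% fell, that is 31 and 123 genes, and their median level was 0.472 CPM beside 24.99 CPM for protein-coding genes. With CX-5461 at 3 h 12 long noncoding genes rose and 37 fell, and with PMR-116 at 12 h 56 rose and 69 fell. Among protein-coding genes ranked by their span in the genome, 89 of the 1356 shortest (0.192 to 5.74 kb) rose and 58 fell. Of the 1356 longest (157 to 2298 kb) 16 rose and 69 fell. The median log2 fold change was 0.06 in the shortest bin and -0.05 in the longest, and the vehicle of PMR-116 set against the vehicle of CX-5461 gave 0.04 and -0.02 for the same bins. Whether the difference between these vehicle groups has a part in the pattern was not tested. Genes with a single exon made up 5.41% of the rises and 4.75% of the falls, beside 2.47% of all protein-coding genes tested.

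**Figure D4:**
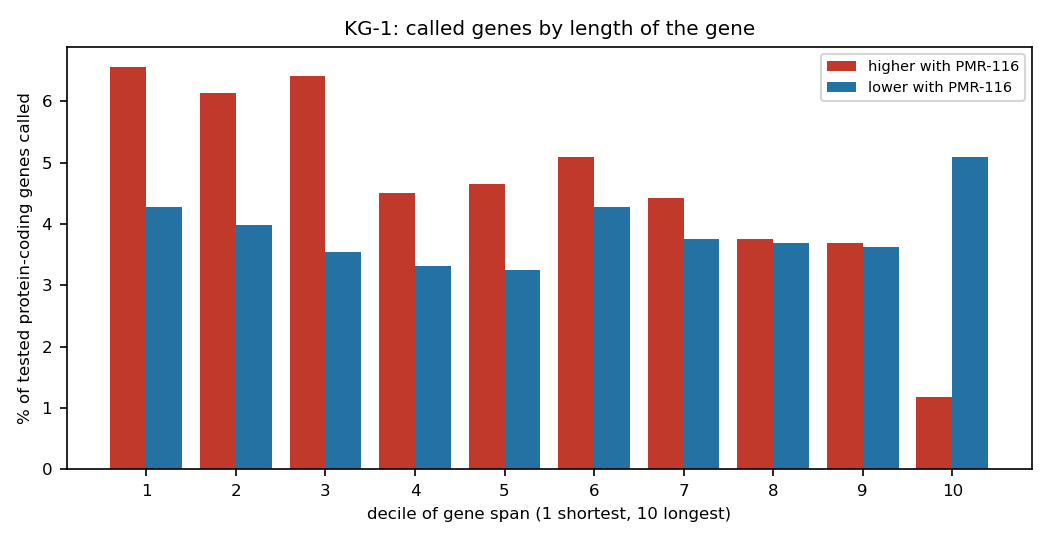
Percentage of tested protein-coding genes called higher (red) or lower (blue) after 3 h of PMR-116 in KG-1 (vertical axis), by 10 bins of gene span, shortest to longest (horizontal axis). In the longest bin 1.18% rose and 5.09% fell, and in the shortest 6.56% rose and 4.28% fell.

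The 3 h effect of PMR-116 was set against that of CX-5461 at the same dose, 1 µM, and time. With CX-5461, 640 genes were called (3.44% of those tested). Of the 673 rises with PMR-116, 643 had the same sign with CX-5461 and 228 were called the same way, which is 33.9% of these rises and 66.1% of the 345 rises with CX-5461. Of the 691 falls, 651 had the same sign and 175 were called the same way, which is 25.3% of them and 59.3% of the 295 falls with CX-5461, and 0 genes were called in opposite directions. No vehicle library was shared between these comparisons, and the share of same signs over all genes tested was not counted. The difference between the compounds was called for 2 genes, or 0.0107% of those tested, with 863 genes at an unadjusted p under 0.05 and 16 genes called by DESeq2. TIGD5 fell by more with PMR-116 (-1.92) than with CX-5461 (-0.88), a difference of -1.03 ± 0.15 (adjusted p = 0.00319). AP5B1, which encodes a subunit of an adaptor complex of late endosomes, fell with PMR-116, averaging 51.1 ± 4.22 CPM with PMR-116 and 71.6 ± 2.52 CPM with vehicle (-0.49 ± 0.06), and was at 0.03 with CX-5461 (difference -0.51 ± 0.08, adjusted p = 0.00447). For HEXIM1 the values were 0.85 with PMR-116 and 0.59 with CX-5461, and their difference of 0.27 ± 0.08 was not called (adjusted p = 0.574). The vehicle of PMR-116 set against the vehicle of CX-5461 at 3 h gave 0 calls, 838 genes at an unadjusted p under 0.05 and 2 genes by DESeq2.

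With PMR-116 at 12 h, 1762 genes were called (9.46% of those tested). Of the 673 rises at 3 h, 189 (28.1%) were called higher at 12 h, which is 21.5% of the 880 rises there. Of the 691 falls, 153 (22.1%) were called lower at 12 h, which is 17.3% of the 882 falls there, and 2 rises and 9 falls were called the opposite way. The effect differed between 3 h and 12 h for 314 genes (1.69% of those tested), 143 in the positive and 171 in the negative direction. KCNJ14 was at 1.24 at 3 h and 0.01 at 12 h (difference 1.23 ± 0.16), FAM222A at 1.27 and 0.44 (0.83 ± 0.16), LNPK at 0.81 and -0.02 (0.83 ± 0.22), PCF11 at 0.47 and -0.17 (0.65 ± 0.15) and HEXIM1 at 0.85 and 0.29 (0.56 ± 0.08). TIGD5 was at -1.92 at 3 h and 0.07 at 12 h (difference -1.99 ± 0.15, adjusted p = 1.44e-09), MIR223HG at -1.16 and 0.19 (-1.35 ± 0.23) and FCGR1B at -0.86 and 0.41 (-1.27 ± 0.28). The antisense gene AL365181.3 was at -0.46 at 3 h and 0.92 at 12 h (-1.38 ± 0.18), and its 3 h call ended without 1 library (treated 3 or 4, vehicle 2, 0.108). CYP1A1 (1.62), ATF5 (1.07), DMPK (0.93) and MDM4 (-0.95) were called at 12 h as well.

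**Figure D5:**
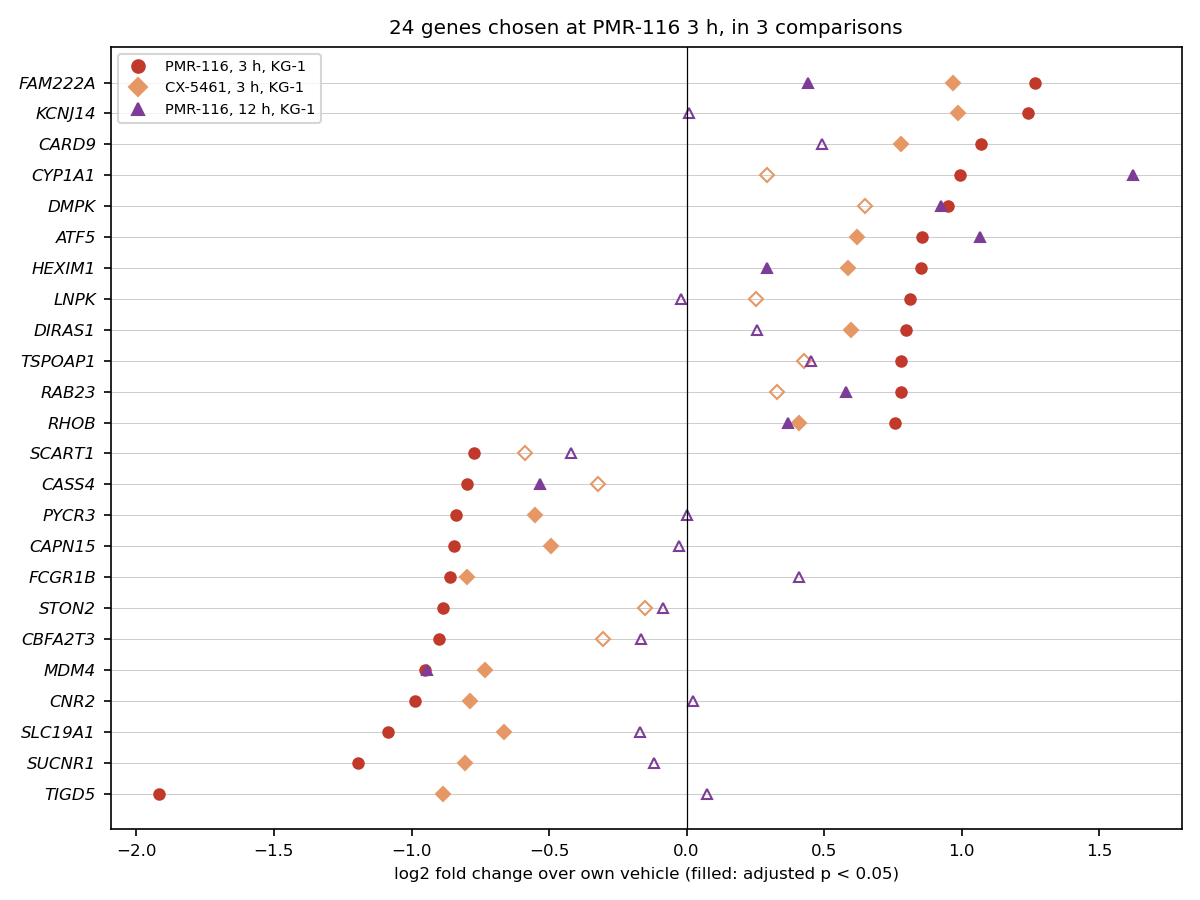
Log2 fold change over the group's own vehicle (horizontal axis) of the 12 largest rises and 12 largest falls at 3 h of PMR-116 in KG-1 among called protein-coding genes that averaged at least 5 CPM in the higher group, without overlap between groups, beside their values with CX-5461 at 3 h and PMR-116 at 12 h. Filled symbols have an adjusted p under 0.05, and TIGD5 lies at -1.92, -0.88 and 0.07.

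The 3 h effect in KG-1 was set against that in Mv4;11 in a joint fit of both lines. In it 1167 genes were called in KG-1 (4.91% of those tested) and 4361 in Mv4;11 (18.4%). The effect differed for 1650 of 23759 genes (6.94%), 759 in the positive and 891 in the negative direction. The line and any batch cannot be told apart. MYC stood at -0.32 in KG-1 and -2.00 in Mv4;11, a difference of 1.67 ± 0.14 (adjusted p = 2.30e-12). CDKN1A was at 0.40 in KG-1 and 2.53 in Mv4;11 (difference -2.13 ± 0.26), and MDM2 at -0.17 in KG-1 and 1.23 in Mv4;11 (-1.40 ± 0.13). HEXIM1 rose by 0.83 in KG-1 and 1.58 in Mv4;11 (-0.75 ± 0.09). Its levels in Mv4;11 were 158 CPM with PMR-116 and 52.9 CPM with vehicle. POLR1B was at -0.03 in KG-1 and -0.78 in Mv4;11 (0.75 ± 0.15). CARD9 rose in KG-1 (1.07) and fell in Mv4;11 (-0.49), a difference of 1.56 ± 0.20. Its level was low in KG-1, with means of 5.025 CPM with PMR-116 and 2.402 CPM with vehicle. In Mv4;11 the means of CARD9 were 124.6 CPM with PMR-116 and 175.6 CPM with vehicle. DDIT4 fell in KG-1 (-1.31) and rose in Mv4;11 (1.22), a difference of -2.53 ± 0.47. RAB27B was at -0.24 in KG-1 and -1.54 in Mv4;11 (1.30 ± 0.26) and the phosphodiesterase gene PDE4B at -0.60 in KG-1 and 1.04 in Mv4;11 (-1.65 ± 0.36). Without 1 library the KG-1 calls of RAB27B (treated 1 or 2, vehicle 2 or 4, 0.0839) and PDE4B (treated 1 or 4, vehicle 2 or 3, 0.0804) ended. The largest differences were in GUCY1A1, LPAR3 and KIF26A, which averaged at most 0.155 CPM in either Mv4;11 group, so that their fitted differences depend on the prior count and nothing is read from their size.

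The calls nearest the threshold on the inside were AC109322.1, HK2-DT and TLR1, each with an adjusted p of 0.04996, and those nearest on the outside were C19orf48, IER2 and LRRN2, each at 0.05005. HK2-DT had 10.5, 10.1, 9.72 and 10.3 CPM in PMR-116 libraries, against 12.9, 12.7, 12.6 and 14.5 CPM in vehicle libraries, and was called in no fit with 1 library left out. TLR1 lost its call without treated 1, 2 or 4 or vehicle 2, 3 or 4 (0.147), and AC109322.1 without treated 1 or 4 or vehicle 2, 3 or 4 (0.164). On the outside, each gene was called in some fit with 1 library left out. The lowest adjusted p was 0.0433 for C19orf48, 0.0303 for IER2 and 0.00279 for LRRN2.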

How the data were processed

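RNA sequencing of KG-1 cells was analysed from the estimated counts per gene symbol that the authors deposited, 1 table per cell line. RNA was purified on columns and sequenced from Illumina Stranded mRNA libraries, per the labels' protocols. The submitters' processing notes name Salmon 1.5.2, DESeq2 and the build GRCh38.p13. What each tool did, which annotation was used and how strand was set are not stated there. The Mv4;11 table held 24 further columns that matched no sample and were not used. The labels do not say whether replicates came from separate cultures, so p-values measure the spread between these samples, which may be technical. Every pair of replicates differed by more than sampling noise (chi-square over its degrees of freedom at least 8.41).

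The estimated counts, rounded to integers, were fitted with edgeR 4.0.16 in R 4.3.3 (filterByExpr with minimum count 10 and minimum total 15, scaling by the trimmed mean of M-values, quasi-likelihood test). All 32 KG-1 libraries in 8 groups entered 1 fit, and 56 libraries a joint fit for the comparison of lines. P-values are 2-sided, with Benjamini-Hochberg adjustment across every gene tested, with a call at an adjusted p under 0.05. Errors after ± are standard errors of a log2 fold change unless given as SD. CPM are scaled to the adjusted library size, and depth is the total count per library. Alternatives were DESeq2 1.42.0, other scalings and filters, a replicate block, other sets of libraries and leaving out each library. Gene types, spans and overlaps are from GENCODE v29, in which 56286 of 59081 symbols were found. The fits were tested on simulated data.

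The members, the gene lists and the rules were chosen with earlier results of these data known. Named genes are the 12 largest rises and 12 largest falls among called protein-coding genes whose higher group averaged at least 5 CPM, with no overlap between groups, the 8 largest gains and 8 largest losses in mean CPM, up to 4 members with the smallest p in each list described, MYC, CDKN1A, MDM2, POLR1A, POLR1B, RRN3, UBTF and HEXIM1, the 4 most positive and 4 most negative differences of effects, and the 3 calls nearest the threshold on each side. Further called members of the described lists, the remaining mitochondrial genes, SESN2 and ATF4 were named after their values were seen. Some genes that this rule or a list would name are not reported here.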

Additional observations from a re-analysis of the deposited data

Results flagged for a closer look

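In 20 of 274 groups of 4 libraries, 1 library lay far from the other 3, where chance gives about 1 in 20 groups. No cause was tested. Among PMR-116 libraries, replicate 2 was low for RAB23 (6.745 CPM, the others 8.99 to 9.37), MT-ND6 (46.11 CPM, the others 71.1 to 72.8) and RRN3 (74.59 CPM, the others 82.7 to 83.9). It was high for PAG1 (986.8 CPM) and TRIB1 (16.96 CPM). PMR-116 replicate 1 was high for IER5 (86.83 CPM), ID1 (24.33 CPM) and SQSTM1 (200.7 CPM) and low for CFLAR (166.2 CPM), and replicate 3 was high for MIR223HG (15.28 CPM). Among vehicle libraries, replicate 4 was low for MT-ND1 (1380 CPM, the others 1707 to 1742) and MT-ND2 (2275 CPM) and high for ERCC3 (80.84 CPM) and HK2-DT (14.46 CPM). Vehicle replicate 1 was high for PYCR3 (97.74 CPM) and DDX31 (50.8 CPM) and low for PAG1 (972.5 CPM). Vehicle replicate 2 was high for MDM4 (41.01 CPM) and AL365181.3 (7.875 CPM), and replicate 3 was low for IKZF2 (86.68 CPM).

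The effect of PMR-116 at 3 h differed from that at 12 h, by the interaction in edgeR, for KCNJ14 (1.233), LNPK (0.832), FAM222A (0.825), PCF11 (0.645) and HEXIM1 (0.56). It differed in the negative direction for TIGD5 (-1.991), AL365181.3 (-1.379), MIR223HG (-1.348), FCGR1B (-1.269) and AP5B1 (-0.547). It differed from that of CX-5461 for TIGD5 (-1.034) and AP5B1 (-0.513). These are differences of log2 fold changes.

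The effect in KG-1 differed from that in Mv4;11 in the positive direction for KIF26A (4.941), MYC (1.674), CARD9 (1.564), RAB27B (1.301), POLR1B (0.751), POLR1A (0.37) and RRN3 (0.27). It differed in the negative direction for GUCY1A1 (-5.143), LPAR3 (-4.122), DDIT4 (-2.532), CDKN1A (-2.133), PDE4B (-1.645), TIGD5 (-1.472), MDM2 (-1.397), HEXIM1 (-0.751) and AP5B1 (-0.722). The values for KIF26A, GUCY1A1 and LPAR3 depend on the prior count of the fit and are no measure of size, since these genes were at or near 0 in Mv4;11. The KG-1 call of LPAR3 ended without 1 library (treated 2 or 3, vehicle 1 or 2, 0.0809). The line and any batch cannot be told apart.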

How the results depend on the processing

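Of the 1364 calls, 592 (43.4%) held in all 16 alternatives. The cause of the changes below was not tested. A replicate block gave 2599 calls, all 1364 among them, and both vehicle groups as reference 2353. Of 137 genes carried through the alternatives, 0 lost their call with the block and 5 gained one. Same-numbered libraries deviated together weakly (correlations 0.165, 0.09, 0.095 and 0.11, unlike numbers -0.081 to 0.006), and 8 of 8 libraries correlated best with their own number, a hint from the data and not the design. Leaving out 1 library gave 901 to 1279 calls. Calls of 2-fold or more numbered 57 with members only, 71 with only the 8 libraries, and 91 to 139 with 1 library left out. For PMR-116 minus CX-5461 the block gave 18, DESeq2 16 and leaving out 1 library 2 to 3. For 3 h minus 12 h no filter gave 171, the block 1235, DESeq2 631 and leaving out 1 library 218 to 306. Vehicle against vehicle gave 2 by DESeq2 and 0 with any 1 library left out. KG-1 minus Mv4;11 gave 1199 (without Mv4;11 PMR-116 replicate 3) to 1962. DESeq2 for these differences was chosen after seeing the data. The sign of uncalled genes turned for MT-CO2 (-0.011 with library totals, 0 with members only, -0.013 with both vehicles, -0.042 to 0.05 with 1 library left out), POLR1A (0.001 with both vehicles), POLR1B (0.039 with both vehicles, -0.056 to 0.055), UBTF (0.003 with both vehicles, -0.047 to 0.03), MT-ND6 (-0.229 to 0.008) and ATF4 (-0.159 to 0.059). Intervals cover counting error and the spread of these libraries only, and 31010467 counts in the shallowest library limit what is detectable for low genes.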
